A study of Mus musculus with 4 samples.

Results

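ER-associated degradation (ERAD) clears misfolded proteins from the endoplasmic reticulum (ER). Lectins and mannosidases of the ER lumen recognize a misfolded glycoprotein, a membrane complex built around a ubiquitin ligase moves it back across the membrane and tags it with ubiquitin, and a cytosolic ATPase pulls it out and hands it to the proteasome. Several ERAD genes are known targets of the unfolded protein response, which raises folding and degradation capacity when misfolded proteins accumulate. The ERAD machinery was followed here through 10 genes, matched by symbol, of the 11598 in the deposited table. They cover substrate recognition (*Edem1*, *Edem3*, *Os9*), the ligase complex (*Syvn1*, *Sel1l*, *Herpud1*), the derlin channel proteins (*Derl1*, *Derl2*, *Derl3*) and extraction (*Vcp*). These genes were chosen by the abundance of their ribosome-protected fragments (RPFs) in this same comparison, which was already known, so their FPKM and fold changes below are a description and carry no test.

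The study asked how loss of eEF1G, a subunit of the complex that reloads elongation factor eEF1A, alters translation in early meiosis. Ribo-seq, which sequences the mRNA pieces that a ribosome shields from RNase I, was performed on leptotene/zygotene spermatocytes purified by FACS from mouse testes at 12 dpp. There were 2 control libraries, labelled wild type and described by the study as littermates, and 2 *Eef1g*-cKO libraries, in which *Stra8*-GFPCre removes exons of a floxed *Eef1g* allele on a C57BL/6J background. This Cre acts in male germ cells from the spermatogonial stage, so somatic cells of these testes keep *Eef1g*. No source used here says whether the 2 libraries of a genotype came from separate animals, and the spread between them may be technical. Only RPFs were compared here, so a change in mRNA amount and a change in ribosomes per mRNA cannot be told apart. The study also sequenced mRNA of such sorted cells and calculated RPFs relative to mRNA, values that were not used here.

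Depth differed by genotype. The control libraries held 2479504 and 1384282 reads counted on genes and the *Eef1g*-cKO libraries 223906 and 407979. One read on a gene of 1 kb was worth 0.403 and 0.722 FPKM in control against 4.47 and 2.45 FPKM in *Eef1g*-cKO. The intervals on read counts given below describe counting error alone and leave out the spread between libraries of a genotype. Reads copied by PCR do not count separate molecules, so even the counting error may be wider. *Eef1g* itself had 107 and 58 reads in control against 0 and 4 in *Eef1g*-cKO, which matches the labels. All 10 leptotene/zygotene markers, among them the axis genes *Sycp1* and *Sycp3*, had reads in both genotypes, and so did all 10 spermatogonial markers. The presence of reads therefore does not tell these stages apart. By immunostaining, the study found no significant difference between genotypes in the share of leptotene/zygotene cells after sorting. The leptotene/zygotene markers summed to 1881 and 1476 FPKM in control against 4348 and 3938 FPKM in *Eef1g*-cKO. Markers of other cells moved with genotype too. The 10 spermatogonial markers summed to 1479 and 1751 FPKM in control against 240 and 228 FPKM in *Eef1g*-cKO, and 8 of the 10 lay lower in both *Eef1g*-cKO libraries. Their sum was above that of the leptotene/zygotene markers in Control replicate 2 and below it in the other libraries. The 8 Sertoli cell markers in the table, of 10 listed, summed to 635 and 145 FPKM in control against 127 and 97.8 FPKM in *Eef1g*-cKO, with 7 lower in both. Pachytene markers, 4 of 8 in the table, summed to 578 and 439 FPKM in control against 1708 and 1658 FPKM in *Eef1g*-cKO. Of these 4, 3 lay higher and 1 lower in both *Eef1g*-cKO libraries. Spermatid, Leydig and peritubular markers were low, at most 55.9 FPKM in sum in any library, and none of 5 macrophage markers was in the table. *Prm2*, *Cyp11a1* and *Hsd3b1* had no read in *Eef1g*-cKO. In such bulk libraries fewer cells of a type and less RNA per cell cannot be told apart, and the part of these shifts and of depth in the ERAD values was not tested.

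Promoter sequences are shown first, because 4 of the members hold exact matches to elements through which the stress responses of the ER are known to act. The windows, from RefSeq on GRCm38.p6, run from 250 bases before to 50 bases after each annotated start. Of the 10 genes, 9 have an entry, *Derl2* for 2 starts. *Derl1* has no entry, so its promoter was not searched. Both strands were searched for exact matches to the ER stress response element ERSE (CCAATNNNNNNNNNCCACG), its variant ERSE-II (ATTGGNCCACG), the unfolded protein response element UPRE (TGACGTGG), the C/EBP-ATF response element CARE (TGATGNAA) and the CCAAT box (CCAAT), which is also the first part of ERSE and, on the other strand, of ERSE-II. The lines below give the 200 bases that end just before the annotated start of 4 genes, 5′ to 3′ on the strand of the gene, with the ERSE, ERSE-II, UPRE and CARE matches in capitals. They are chr8:94386229-94386428 on the plus strand for *Herpud1* (CARE read from the other strand, then ERSE-II), chr19:6046376-6046575 on the plus strand for *Syvn1* (ERSE), chr10:75893198-75893397 on the plus strand for *Derl3* (ERSE read from the other strand) and chr4:43000508-43000707 on the minus strand for *Vcp* (UPRE).
Herpud1: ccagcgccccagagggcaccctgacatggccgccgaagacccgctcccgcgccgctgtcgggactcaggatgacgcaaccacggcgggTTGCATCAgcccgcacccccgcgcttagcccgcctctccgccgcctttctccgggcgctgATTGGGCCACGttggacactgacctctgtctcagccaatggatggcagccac
Syvn1: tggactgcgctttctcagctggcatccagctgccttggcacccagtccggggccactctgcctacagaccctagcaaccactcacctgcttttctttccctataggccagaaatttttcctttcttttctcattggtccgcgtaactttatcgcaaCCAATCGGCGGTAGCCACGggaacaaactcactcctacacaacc
Derl3: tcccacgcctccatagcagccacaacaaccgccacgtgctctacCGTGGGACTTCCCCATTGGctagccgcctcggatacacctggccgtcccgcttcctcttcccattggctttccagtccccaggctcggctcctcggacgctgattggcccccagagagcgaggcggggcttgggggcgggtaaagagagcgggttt
Vcp: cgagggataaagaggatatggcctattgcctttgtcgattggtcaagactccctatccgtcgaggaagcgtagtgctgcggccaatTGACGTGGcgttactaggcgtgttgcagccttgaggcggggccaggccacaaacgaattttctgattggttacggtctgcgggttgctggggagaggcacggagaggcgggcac

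ERSE-II, which 0.0365% of all 32851 windows hold, was found among the members only in *Herpud1*, beginning 52 bases before the start, and the CARE match of the same promoter, a motif in 3.97% of windows, begins 112 bases before it. ERSE, in 0.119% of windows, was found in *Syvn1*, 44 bases before the start, and in *Derl3*, 156 bases before it. The UPRE match of *Vcp*, 114 bases before the start, is of a kind that 0.676% of windows hold. A CCAAT box, which 37.4% of windows have, was present in all 9 genes, although in *Derl2* at only one of its annotated starts. These are matches of letters and not binding sites, and *Sel1l*, *Edem1*, *Edem3*, *Os9* and *Derl2* had only the CCAAT box in these windows.

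**Figure D1:**
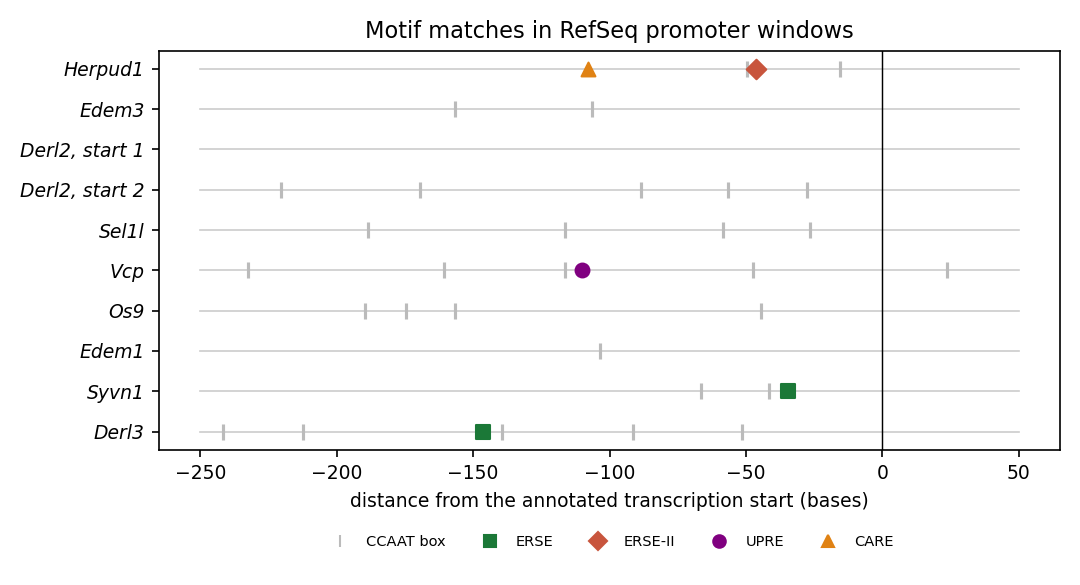
Motif matches in the RefSeq promoter windows of 9 ERAD genes (2 starts for *Derl2*), placed by distance from the annotated start in bases, with genes ordered from the highest to the lowest log2 fold change in *Eef1g*-cKO. *Herpud1* at the top carries ERSE-II and CARE, and *Syvn1* and *Derl3* at the bottom carry ERSE. *Derl1* has no window and is not shown.

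*Herpud1* and, by a smaller margin, *Derl1* had higher RPF abundance in *Eef1g*-cKO, at log2 fold changes of 3.86 and 1.39, whereas those of the other 8 members lay between −0.87 and 0.70. RPF abundance was tested by limma after log2(FPKM + 1), a scale that understates the change of low genes, for the 10475 genes that averaged at least 1 FPKM. All 10 members passed that filter. With a call defined as a log2 fold change beyond 1 or −1 at an adjusted p under 0.05, 2 members were called increased, *Herpud1* and *Derl1*, beside 2.87% of all genes tested. None was called decreased, beside 4.97% of all genes, and none was at an unadjusted p under 0.05 or in edgeR's or DESeq2's count tests either. For 4 members the *Eef1g*-cKO libraries were each above the control pair, beside 24.6% of all genes, and for 1 they were each below it, beside 37.7%. Since the comparison was known when the members were chosen, nothing is read from these counts. The median log2 fold change was −0.11 over the members and −0.23 over all genes tested. Leaving out Control replicate 1 or Control replicate 2 ended the calls of both genes along with every other call of the table (0 of 10161 and 0 of 10248 genes by limma's adjusted p, against 585 and 501 increases and 941 and 724 decreases at an unadjusted p under 0.05). *Herpud1* then had a log2 fold change of 3.75 and 3.96 and *Derl1* of 1.59 and 1.18. An untrended prior variance or thinning all libraries to equal reads also left 0 adjusted calls in the table, with 793 and 715 increases and 1811 and 1256 decreases at an unadjusted p under 0.05.

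**Figure D2:**
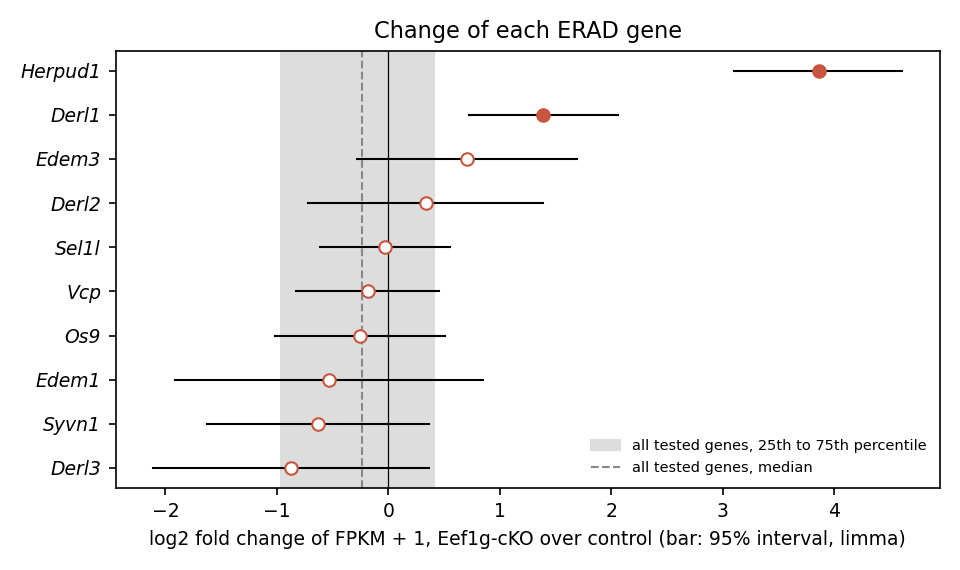
Log2 fold change of FPKM + 1 in *Eef1g*-cKO over control for the 10 ERAD genes, with the 95% interval of limma as a bar and the 2 called genes filled; the grey band and dashed line mark the 25th to 75th percentile and the median of all 10475 genes tested. *Herpud1* and *Derl1* lie at 3.86 and 1.39 and the other 8 genes between −0.87 and 0.70, shown as a description because the genes were chosen with these values known.

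The recognition genes act first, in the ER lumen. *Edem1* and *Edem3* belong to the EDEM family, which trims mannose from misfolded glycoproteins. *Edem3* had 6.41 and 5.14 FPKM in the control libraries and 12.2 and 8.17 FPKM in the *Eef1g*-cKO libraries, from 105, 47, 18 and 22 reads. The groups did not overlap, both *Eef1g*-cKO libraries being higher, but the log2 fold change of 0.70 (standard error 0.40) was not called. Its pooled read rate was 1.61-fold that of control (95% interval of the counts, 1.11 to 2.29). *Edem1* was the least abundant member by FPKM, at 1.79 and 3.08 FPKM in control against 0.762 and 2.09 FPKM in *Eef1g*-cKO, from 26, 25, 1 and 5 reads. The genotypes overlapped, and with so few reads the pooled rate ratio of 0.719 had an interval from 0.252 to 1.68. *Os9* encodes a lectin that passes trimmed glycoproteins to the ligase complex. It had 16.2 and 17.8 FPKM in control against 12.1 and 16.3 FPKM in *Eef1g*-cKO, from 163, 100, 11 and 27 reads. *Eef1g*-cKO replicate 1 was the lowest and *Eef1g*-cKO replicate 2 lay within the control range, and the log2 fold change was −0.26 (standard error 0.31).

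In the ligase complex, *Syvn1* encodes HRD1, the membrane-bound ubiquitin ligase, and *Sel1l* the scaffold that holds it together with the recognition factors. The genes lie at chr19:6046576-6053718 and chr12:91806043-91849157. *Sel1l* had the most reads of the members in every library, 702 and 323 in control against 53 and 109 in *Eef1g*-cKO. Its abundance was 44.9 and 37.0 FPKM in control against 37.6 and 42.4 FPKM in *Eef1g*-cKO. The *Eef1g*-cKO values lay inside the control range, the log2 fold change was −0.03 with a 95% interval from −0.62 to 0.56, and the pooled rate ratio was 0.966 (0.814 to 1.14). *Syvn1* had 16.5 and 34.2 FPKM in control against 13.4 and 16.8 FPKM in *Eef1g*-cKO, from 150, 173, 11 and 25 reads. Here the control libraries themselves differed, replicate 2 being 2.07-fold replicate 1 (interval of the counts, 1.65 to 2.59), and the *Eef1g*-cKO values lay around that of Control replicate 1. The log2 fold change of −0.63 had a standard error of 0.41, and the pooled rate ratio was 0.682 (0.469 to 0.963). The bounds of *Syvn1* share 89 bases with *Mrpl49*, and how reads there were assigned is not given in the sources used here.

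*Herpud1* encodes HERP, a small membrane protein that joins HRD1 to the derlins and is known as one of the genes most readily induced by ER stress. The gene lies at chr8:94386429-94395371 of GRCm38. It had 4.53 and 5.41 FPKM in the control libraries and 103 and 70.7 FPKM in the *Eef1g*-cKO libraries. The read numbers were 21 and 14 in control against 43 and 54 in *Eef1g*-cKO, so that both *Eef1g*-cKO libraries held more reads on this gene than either control library despite their lower depth. The means were 4.97 ± 0.621 and 86.7 ± 22.6 FPKM (SD, n = 2 each), the log2 fold change was 3.86 (standard error 0.31), and the pooled read rate was 16.9-fold that of control (11.4 to 25.7). Of the 10475 genes tested, 6 had a larger log2 fold change. *Herpud1* was chosen with its value known, so this rank is a description only. With *Sel1l* inside its control range, the ratio of *Herpud1* to *Sel1l* FPKM went from 0.101 and 0.146 in control to 2.73 and 1.67 in *Eef1g*-cKO. Against *Syvn1*, the same ratio was 0.274 and 0.158 in control against 7.64 and 4.22 in *Eef1g*-cKO. By contrast, the ratio of the ligase to its scaffold, *Syvn1* to *Sel1l*, was 0.368 and 0.923 in control against 0.358 and 0.395 in *Eef1g*-cKO, and the genotypes overlapped.

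The derlins are multi-spanning membrane proteins that help to form the path out of the ER. *Derl1* (chr15:57869502-57892418) had 19.2 and 14.2 FPKM in control against 42.6 and 47.5 FPKM in *Eef1g*-cKO, from 150, 62, 30 and 61 reads. The genotypes were well apart, at a log2 fold change of 1.39 (standard error 0.27) and a pooled rate ratio of 2.62 (2.03 to 3.37). *Derl1* was no longer called with a pseudocount of 0.1 FPKM or without the filter on low genes, at log2 fold changes of 1.44 and 1.39. *Derl2* had 3.79 and 5.74 FPKM in control against 6.45 and 5.90 FPKM in *Eef1g*-cKO, from 39, 33, 6 and 10 reads. Both *Eef1g*-cKO libraries were higher by a margin smaller than the gap between the control libraries, and the log2 fold change was 0.34 (standard error 0.43). The bounds of *Derl2* and *Mis12* share 274 bases. *Derl3*, the family member known from secretory cells, had 6.04 and 12.4 FPKM in control against 3.34 and 5.50 FPKM in *Eef1g*-cKO, from 20 and 23 reads against 1 and 3. Both *Eef1g*-cKO libraries were lower, the only member for which this held, but 1 and 3 reads leave the pooled rate ratio of 0.569 with an interval from 0.148 to 1.57, and the log2 fold change was −0.87 (standard error 0.50). The ratio of *Derl1* to *Derl2* was 5.08 and 2.48 in control against 6.60 and 8.06 in *Eef1g*-cKO, and that of *Derl1* to *Derl3* was 3.19 and 1.15 in control against 12.7 and 8.64 in *Eef1g*-cKO, neither overlapping between genotypes.

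Extraction is performed by p97, an abundant cytosolic ATPase encoded by *Vcp* that also works outside ERAD. *Vcp* had 34.6 and 36.8 FPKM in control against 26.9 and 36.2 FPKM in *Eef1g*-cKO, from 284, 169, 20 and 49 reads. *Eef1g*-cKO replicate 1 was the low value and replicate 2 was close to control, and the log2 fold change was −0.19 (standard error 0.26, 95% interval −0.82 to 0.45). The UPRE match of its promoter and the ERSE matches of *Syvn1* and *Derl3*, printed above, stood before genes that were not called, and the ERSE-II and CARE matches before *Herpud1*. The promoter of *Derl1*, the other called member, was not searched.

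**Figure D3:**
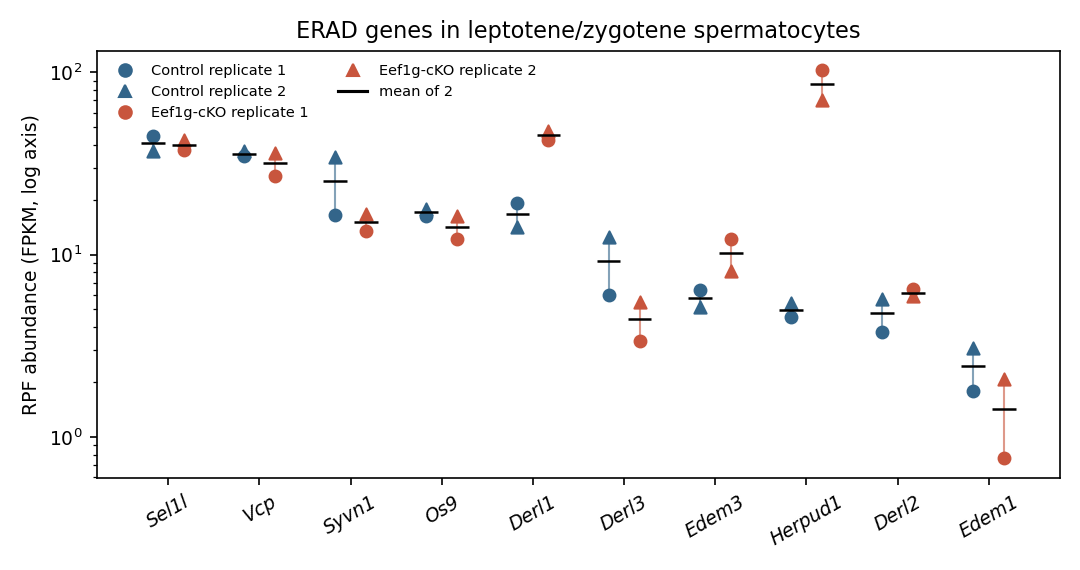
RPF abundance in FPKM (log axis) of the 10 ERAD genes in each of the 4 libraries, ordered by the control mean; blue is control, red is *Eef1g*-cKO, circles are replicate 1, triangles replicate 2 and black bars the mean of 2. *Herpud1* moves from 4.53 and 5.41 FPKM to 103 and 70.7 FPKM, whereas *Sel1l* and *Vcp* keep to a band between 26.9 and 44.9 FPKM.

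The order of levels within the machinery differed between genotypes. By FPKM, a level per gene length, the control order was *Sel1l*, *Vcp*, then *Syvn1*, *Os9* and *Derl1*, then *Derl3*, *Edem3*, *Herpud1* and *Derl2*, and last *Edem1*. Neighbours from *Syvn1* to *Derl1* overlapped in the control libraries, as did those from *Derl3* to *Derl2*, so their order is not resolved. *Sel1l* and *Vcp* did not overlap, but their nearest control values were close, at 37.0 and 36.8 FPKM. In *Eef1g*-cKO the order began with *Herpud1*, *Derl1*, *Sel1l* and *Vcp*, and *Herpud1* went from rank 8 to rank 1. Neighbours among these did not overlap, but the nearest values of *Derl1* and *Sel1l* were 42.6 and 42.4 FPKM. Those of *Sel1l* and *Vcp* were 37.6 and 36.2 FPKM, so the order from *Derl1* to *Vcp* is not resolved either. RPFs come mostly from coding sequence, which makes up 17.3% of the gene length of *Derl2* and 72.9% of that of *Vcp*. Per kilobase of the longest coding sequence, a scale chosen after the data had been seen, *Derl1* led in *Eef1g*-cKO at 178 and 199, and *Herpud1* followed at 164 and 113, up from rank 9 in control. *Sel1l* was first in control on both scales.

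As a share of all counted reads, the 10 genes together took 670 and 700 reads per 1000000 in control against 866 and 895 in *Eef1g*-cKO, a 1.29-fold higher mean. Without *Herpud1* the shares were 661 and 690 in control against 674 and 762 in *Eef1g*-cKO. Without *Herpud1* and *Derl1* they were 600.5 and 645 in control against 540 and 613 in *Eef1g*-cKO, overlapping. *Herpud1* held 1.27% and 1.44% of the reads on the 10 genes in control against 22.2% and 14.8% in *Eef1g*-cKO, while *Sel1l* held 42.3% and 33.3% in control against 27.3% and 29.9% in *Eef1g*-cKO.

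**Figure D4:**
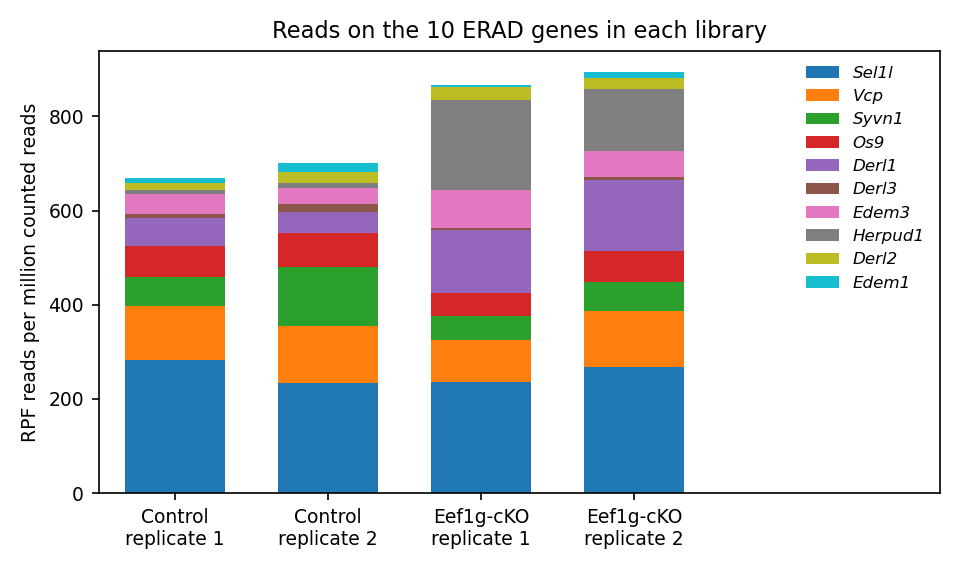
RPF reads on each of the 10 ERAD genes per 1000000 counted reads, stacked for each of the 4 libraries. The *Eef1g*-cKO bars reach 866 and 895 against 670 and 700 in control, and the grey *Herpud1* and purple *Derl1* segments widen the most.

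The remaining ERAD pathway was examined through 67 further genes from general knowledge, of which 65 were in the table and 62 were tested. Limma called 5 increased (8.06%, beside 2.87% of all genes) and 2 decreased (3.23%, beside 4.97%). Their median log2 fold change was 0.23, against −0.23 over all genes, with 24 genes higher and 11 lower in both *Eef1g*-cKO libraries, beside 24.6% and 37.7% of all genes. By role, increases passed for 3 of 7 tested recognition genes and 1 of 12 cytosolic handling genes, and for none of 16 membrane partners, 7 ubiquitin conjugation genes or 9 extraction genes, of which 2, 1 and 1 passed at an unadjusted p under 0.05. The 11 ligases tested are not broken down here. In edgeR's quasi-likelihood test on the recovered reads, 12 of the 57 genes it tested were called increased, beside 8.75% of all genes in that test. Without Control replicate 1 or Control replicate 2 none was called by adjusted p in either direction, as for the whole table, while 7 and 8 passed as increased and 3 and 1 as decreased at an unadjusted p under 0.05.

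Among the 10 members, the recognition genes were mixed, at log2 fold changes of −0.53 (*Edem1*), 0.70 (*Edem3*) and −0.26 (*Os9*). In the wider list, all 7 tested recognition genes had a positive log2 fold change, with a median of 1.13. Of these 7, 3 (*Man1b1*, *Man1a* and *Sdf2l1*) overlapped control. The eighth, *Foxred2*, was below the abundance filter, with 12 and 8 reads in control against 0 and 1 in *Eef1g*-cKO, a rate ratio of 0.306 (0.00738 to 1.91). These 4 were named after their values had been seen. *Edem2*, the EDEM protein that starts mannose trimming, had 32.2 and 37.8 FPKM in control against 125 and 120 FPKM in *Eef1g*-cKO, and rose by 1.78 on the log2 scale (standard error 0.21, limma adjusted p = 0.0252). By FPKM it was more abundant than *Edem1* and *Edem3* in every library. *Dnajc10*, which encodes the ER reductase ERdj5 that opens disulfides before export, had 19.1 and 18.2 FPKM in control against 76.0 and 67.7 FPKM in *Eef1g*-cKO, and rose by 1.89 (standard error 0.23, limma adjusted p = 0.0255). *Erlec1*, the lectin related to *Os9*, had 10.9 and 12.0 FPKM in control against 35.7 and 39.2 FPKM in *Eef1g*-cKO, and rose by 1.63 (standard error 0.26, limma adjusted p = 0.0341). Each of these genes had its *Eef1g*-cKO libraries well above control, while *Os9* overlapped control; the difference between such paired genes was not tested.

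In cytosolic handling, *Ubqln1*, a ubiquilin that escorts ubiquitinated proteins to the proteasome, had 23.1 and 23.9 FPKM in control against 52.1 and 65.2 FPKM in *Eef1g*-cKO, and rose by 1.27 (standard error 0.24, limma adjusted p = 0.0401). The decreases rested on very few *Eef1g*-cKO reads. *Stub1*, which encodes the chaperone-linked ligase CHIP, had 79 and 45 reads in control against 1 and 1 in *Eef1g*-cKO, a rate ratio of 0.0986 (0.0118 to 0.364; limma adjusted p = 0.0307). *Ubxn6*, a p97 cofactor gene, had 74 and 84 reads in control against 2 and 2 in *Eef1g*-cKO, a rate ratio of 0.155 (0.0417 to 0.404; limma adjusted p = 0.0445).

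**Figure D5:**
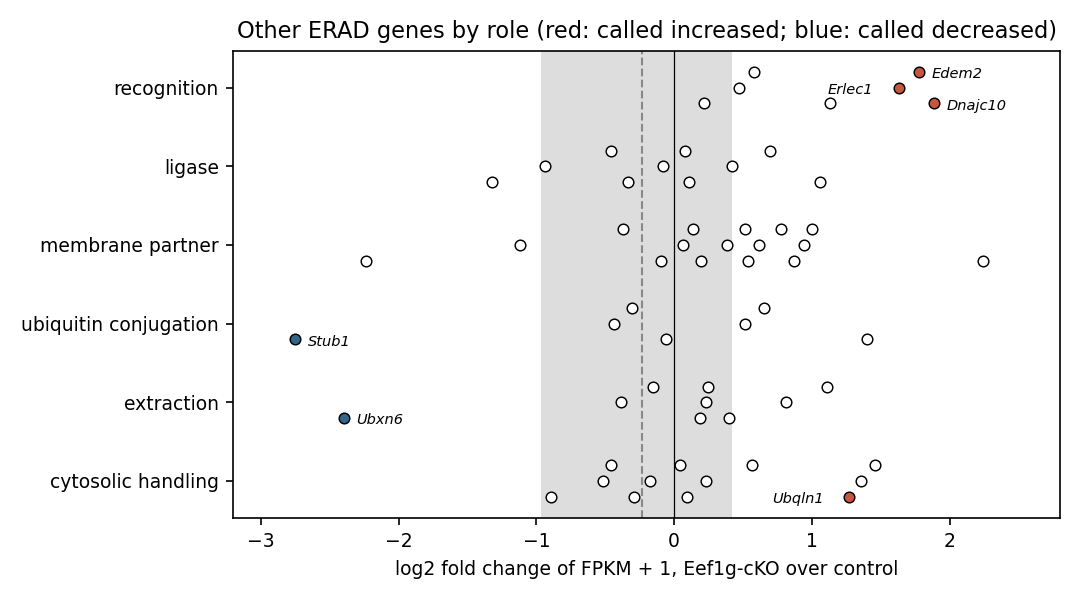
Log2 fold change of FPKM + 1 in *Eef1g*-cKO over control for the other ERAD genes tested, one point each, by role, with 1 called gene not shown; red points were called increased, blue points decreased, and the grey band and dashed line mark the 25th to 75th percentile and the median of all genes tested. All 7 tested recognition genes of this wider list lie above 0, and *Stub1* and *Ubxn6* lie at −2.75 and −2.40. The members *Edem1*, *Edem3* and *Os9* are not shown.

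The genes whose pattern over the 4 libraries was most like that of *Herpud1* were sought among 7080 genes that averaged at least 5 FPKM, by the root mean square difference of log2(FPKM + 1) after centring each gene. They were *Bak1* (0.156), *Gdap1* (0.39), *Ano8* (0.398), *Slc7a3* (0.409) and the non-coding *4933412E12Rik* (0.414). *Bak1*, which encodes a pro-apoptotic BCL2 family protein, had 2 and 2 reads in control against 11 and 11 in *Eef1g*-cKO, and *Gdap1* had 27 and 9 reads in control against 74 and 88 in *Eef1g*-cKO. *Slc7a3* had 1 and 0 reads in control against 9 and 22 in *Eef1g*-cKO, and *4933412E12Rik* had 0 and 2 against 5 and 7. The filter took the mean over all 4 libraries, so a gene could pass it through its *Eef1g*-cKO values alone. *Bak1*, *Gdap1*, *Slc7a3* and *4933412E12Rik* were each below 5 FPKM in both control libraries. With 4 libraries, likeness means little more than a change of similar size in the same direction.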

How the data were processed

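RPFs of 2 control and 2 *Eef1g*-cKO libraries at 12 dpp were analysed from the single deposited table of 11598 genes. In it the authors deposited FPKM, scaled to gene length and to the reads counted on genes, and normalized counts, a signal in which each count is divided by a size factor. All values of that signal (100% in each library, within 0.01 read) were whole multiples of their library's step, which gave back the reads. The deposited table also holds 6 columns of the authors' own mean and comparison, which were not used. The submitters' processing notes list mm10, hg38, cutadapt, Bowtie and STAR without roles. The read counter and annotation are not given in the sources used here.

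Limma 3.58.1 (trended prior variance) was run on log2(FPKM + 1) over the 10475 genes that averaged at least 1 FPKM, with Benjamini-Hochberg adjustment over all of them. An exact two-sided permutation test of 2 against 2 libraries cannot give a p below 0.333, so the p-values rely on variance shared between genes. Pooled rate ratios carry exact 95% intervals of the read counts. Count tests on the recovered reads, edgeR 4.0.16 (quasi-likelihood; 705 increases and 904 decreases of 8056 genes) and DESeq2 1.42.0, were alternatives, as were other pseudocounts, filters, centring, an untrended prior, equal depth, a replicate block and leaving out each library. Same-numbered libraries did not deviate together (r = −0.008 across genes). With 2 libraries per genotype this value cannot show whether the replicate numbers pair them, and the main fit did not.

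Symbols were matched to RefSeq of GRCm38.p6, 10966 directly, 599 by an older symbol and 33 not at all. Coding lengths came from GENCODE. The members and all gene lists were chosen with earlier results of these data known. The genes named are the members, *Eef1g*, each called gene of the wider ERAD list, except 1 that is not reported here, and the 5 genes most like *Herpud1*. Genes named in the closing section by a promoter motif were chosen after their values had been seen.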

Additional observations from a re-analysis of the deposited data

How the results depend on the processing

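*Herpud1* kept a log2 fold change between 3.18 and 4.68 over 15 alternatives and was called in 11, and *Derl1* kept 1.18 to 1.60 and was called in 9. No other member was called in any alternative, and *Sel1l* and *Vcp* changed sign in 6 and 2 of theirs, around 0. Members called increased numbered 1 with a pseudocount of 0.1 FPKM or no filter and 0 with an untrended prior or at equal depth, where 2 passed at an unadjusted p under 0.05, and 0 to 2 when each library was left out. No member was called decreased by adjusted p in any. Without Control replicate 1, however, *Syvn1* and *Derl3* had log2 fold changes of −1.14 and −1.34. That of *Derl3* was −1.16 without *Eef1g*-cKO replicate 2.

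For all genes, increases and decreases numbered 29 and 47 with a pseudocount of 0.1 FPKM, 0 and 0 with an untrended prior (793 and 1811 at an unadjusted p under 0.05) or at equal depth (715 and 1256), 705 and 904 in edgeR, 689 and 876 in edgeR without a filter, 505 increases in DESeq2, 767 and 1705 by unadjusted p, 0 to 566 and 0 to 1471 when each library was left out, and 424 and 822 with the replicate block, which left the members' calls at 2 and 0. Centring the libraries on their medians moved the median log2 fold change by 0.21 and turned the split from 301 increases and 521 decreases to 521 and 383.

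For the other ERAD genes, increases numbered 2 with a pseudocount of 0.1 FPKM, 8 with a minimum mean of 5 FPKM, 11 after centring, 12 in edgeR with or without a filter, 10 in DESeq2, 0 with an untrended prior or at equal depth (13 and 8 at an unadjusted p under 0.05), 13 by unadjusted p, 7 with the replicate block and 0 to 8 when each library was left out. Decreases numbered 0 with a pseudocount of 0.1 FPKM, an untrended prior or equal depth, 1 without a filter or in DESeq2, and 0 to 3 when each library was left out. The cause was not tested. When a library was left out, the lone library of its genotype was assumed to vary like the others. Depth limited *Edem1*, *Derl2* and *Derl3* most, with under 10 reads in an *Eef1g*-cKO library.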

Other observations

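Over the whole table, 16 tested genes had an ERSE in their promoter window, 2 of them ERAD members. Of the 16, 6 were called increased by limma (*Calr*, *Creld2*, *Dnajc3*, *Ero1lb*, *Hsp90b1* and *Pdia6*), 37.5% beside 2.87% of all genes. Another 1 was called decreased, 6.25% beside 4.97%. Log2 fold changes ran from −1.85 to 2.15, with a median of 0.48. Both *Eef1g*-cKO libraries were higher for 8 of the 16 and lower for 5, beside 24.6% and 37.7% of all genes. *Syvn1* and *Derl3*, with log2 fold changes of −0.63 and −0.87, were not among the increased genes. Of 8 tested genes with ERSE-II, 2 were called increased (25%, beside 2.87% of all genes), *Herpud1* and *Dnajb11*, with a median of 0.51. *Herpud1* is a member and was chosen with its value known. Both *Eef1g*-cKO libraries were higher for 3 of the 8 and lower for 2. UPRE stood before 81 tested genes, with 3 called increased and 3 decreased (3.70% each) and a median of −0.04. CARE stood before 210, with 7 increased (3.33%), *Herpud1* among them, 12 decreased (5.71%) and a median of −0.24. The shares for UPRE and CARE were near those of all genes. These counts are descriptions of promoters with a match of letters, and no test was run on them.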
